A study of Mus musculus with 8 samples.

Results

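Motile cilia genes were followed through the hippocampi of mice that lack *Wls* in cells of the *Gfap* lineage (mutant, genotype *Wls fl/-;Gfap-Cre*) and of their controls (*Wls fl/+;Gfap-Cre*). The set comprised every gene identifier whose symbol begins with Dnah, Dnai, Dnal, Dnaaf, Rsph or Cfap followed by a number (or is *Dnali1*), together with *Foxj1*, *Dynlrb2*, *Spag16* and *Pifo*. It held 55 of the 46517 identifiers in the bulk RNAseq tables and 52 of the 24051 in the snRNAseq matrices. By role these were 17 dynein heavy chain identifiers, 4 light or light intermediate chains, 4 dynein assembly factors, 8 radial spoke genes, 18 other cilia and flagella (*Cfap*) genes, *Foxj1*, *Spag16*, *Pifo* and an antisense transcript of *Dnah2*. *Dnah14* has 3 identifiers, and no symbol of the Dnai kind was present, because the intermediate chains are listed under older symbols that were kept apart as other axonemal genes.

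Each sample was both hippocampi of 1 mouse aged 12 weeks and labelled male, with 2 bulk and 2 snRNAseq samples per genotype. Cre driven by the *Gfap* promoter removes the floxed allele of *Wls*, which encodes a protein required for Wnt secretion. The mutant carries 1 floxed and 1 null allele, and the control, which also carries *Gfap-Cre*, keeps 1 intact allele. The question put to the data was where the motile cilia genes are transcribed in this tissue and whether their levels differ between the genotypes.

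A motile cilium beats through its axoneme, in which dynein motors slide microtubule doublets past each other while radial spokes and a central apparatus set the pattern of the stroke. Dynein arms are put together in the cytoplasm by dedicated assembly factors before transport into the cilium. In the forebrain, multiciliated ependymal cells line the ventricles and the choroid plexus epithelium also bears cilia, whereas neurons and glia carry a primary cilium that lacks the beating apparatus. The transcription factor *Foxj1* drives the motile cilia program, and RFX factors bind the X-box, a palindrome found in promoters of many ciliary genes.

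Promoters are shown for *Dynlrb2*, *Pifo* and *Spag16*, since the bulk and nuclear results below turn on these genes. RefSeq windows (GRCm38.p6) from 250 bases before to 50 bases after a transcription start were held for 43 members. The arm of the X-box, GTTGCC on either strand, was present in a window of 15 of these 43 members and of 14.1% of all 27025 genes. The full palindrome (GTTNCC, 2 bases of any kind, then GGNAAC), which can overlap the arm, was present in 1 of 43 members (*Pifo*) and 0.529% of genes, and with a spacer of 1 base in 0 members and 0.311% of genes. A forkhead motif, GTAAACA on either strand, was present in 3 of 43 members (*Cfap20*, *Cfap43* and *Dnah17*) and 4.05% of genes. These motifs were chosen with the expression results known, and a match describes letters, not a bound site. In the sequences below, read 5′ to 3′ on the gene's strand, capitals mark matches to the arm or, in *Pifo* only, to the full palindrome.
Dynlrb2, chr8:116504765-116505064, plus strand: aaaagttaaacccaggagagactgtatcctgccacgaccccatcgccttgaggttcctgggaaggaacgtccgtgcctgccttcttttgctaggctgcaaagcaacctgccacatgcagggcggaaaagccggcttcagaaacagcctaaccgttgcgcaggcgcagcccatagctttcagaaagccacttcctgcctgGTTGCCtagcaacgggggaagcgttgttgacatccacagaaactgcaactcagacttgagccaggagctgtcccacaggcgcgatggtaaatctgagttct
Pifo, chr3:106001448-106001747, minus strand, the window of its 2 that holds the palindrome: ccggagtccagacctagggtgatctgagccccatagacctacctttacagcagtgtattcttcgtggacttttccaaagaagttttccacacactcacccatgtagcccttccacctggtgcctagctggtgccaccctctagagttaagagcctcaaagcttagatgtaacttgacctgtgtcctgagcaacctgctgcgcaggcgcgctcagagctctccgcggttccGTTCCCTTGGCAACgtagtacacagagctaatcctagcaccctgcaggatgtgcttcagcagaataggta
Spag16, chr1:69826720-69827019, plus strand: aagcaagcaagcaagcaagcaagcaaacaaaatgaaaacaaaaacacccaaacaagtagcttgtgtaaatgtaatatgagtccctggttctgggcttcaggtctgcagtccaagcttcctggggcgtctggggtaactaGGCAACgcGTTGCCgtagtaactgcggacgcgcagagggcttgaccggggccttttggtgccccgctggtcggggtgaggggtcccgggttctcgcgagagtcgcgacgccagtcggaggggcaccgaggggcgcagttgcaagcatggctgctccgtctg
The match in *Dynlrb2* lay at positions -51 to -46 from the start, and the pair of arms in *Spag16* spanned positions -111 to -98. The arms of that pair stand in the reverse order of the palindrome. The *Pifo* window lies inside the annotated gene, whose 5′ end is at position 106014646.

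The libraries held between 56002302 and 79576119 counts in bulk and between 26307081 and 76486132 UMIs in snRNAseq, and the 29425 nuclei shared 87 barcodes between samples. *Wls* was at 3.67 and 6.86 normalised CPM (TMM-normalised counts scaled to library size) in the mutant libraries of bulk RNAseq and at 13.2 and 13.0 in the controls. *Xist*, expressed from the inactive X chromosome of females, stood at 230.1 and 518 CPM in bulk replicate 2 of the mutant and the control, against 1.44 and 1.05 in replicate 1, so that replicate 2 of both genotypes went against the label male. In nuclei *Xist* did not exceed 3.61 CPM in any sample. The 19 choroid plexus markers, *Ttr* among them, summed in bulk to 1344 CPM in mutant replicate 1 and 8955 CPM in mutant replicate 2, against 458 and 340.3 CPM in the controls. Replicates are separate mice, and p-values rest on 2 of them per genotype.

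In bulk RNAseq most members were higher in the mutant, and *Dynlrb2* passed the thresholds. Of 52 members that passed the low-count filter, *Dynlrb2* was called higher at fold change (FC) >3 and FDR <0.05 by edgeR's quasi-likelihood test, where 0.0193% of all 20687 genes tested were called higher. None was called lower by edgeR or DESeq2, where edgeR called 0.198% of all genes lower, and none was lower at an unadjusted p below 0.05, as 9.94% of all genes were. DESeq2 called 4 members higher (*Dynlrb2*, *Pifo*, *Dnah11* and *Cfap126*), as it did 0.434% of genes. The median log2 fold change of the members was 0.64, against 0.01 over all genes tested. Within a genotype the medians of single libraries varied with a pooled SD of 0.0917, from 2 libraries each. Both mutant libraries lay above both control libraries for 37 of the 52 members, as they did for 25.8% of all genes, and below them for 4, as for 25.4% of all genes. The log2 fold change exceeded 1 in 18 members, as in 2.97% of all genes. An unadjusted p below 0.05 was reached by 27 members with a higher level, as by 8.86% of all genes, and DESeq2 gave an FDR <0.05 with a higher level for 16 members, as for 3.4% of all genes. In bulk tissue more cells of a type and more RNA per cell cannot be told apart.

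**Figure D1:**
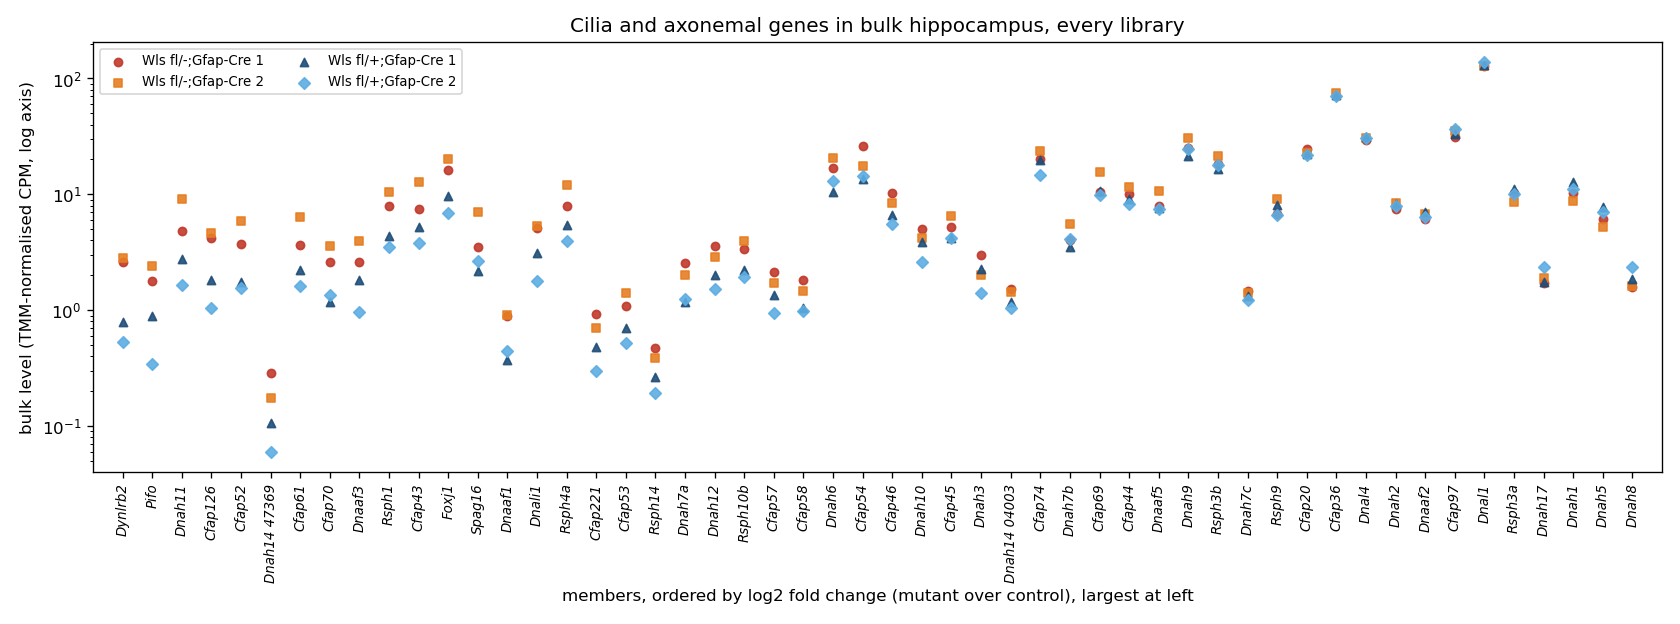
Level of each of the 52 members tested in each bulk library, in TMM-normalised CPM on a log axis, with members ordered by log2 fold change. The 4 points of a member are the 2 mutant (red circles, orange squares) and 2 control libraries (dark triangles, light diamonds). At the left the mutant points lie above the control points. Toward the right the points of abundant members such as *Cfap36* and *Dnal4* lie close together, and at the far right the mutant points of *Dnah1*, *Dnah5* and *Dnah8* lie below the controls.

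*Foxj1*, the regulator of the program, was at 16.2 and 20.2 CPM in the mutant libraries and at 9.69 and 6.91 CPM in the controls. The genotypes did not overlap. Its log2 fold change of 1.13 (SE 0.204, n = 2 per genotype) did not pass the test, with an FDR of 0.0837 in edgeR, and DESeq2 gave an FDR of 8.1e-06 at a fold change under 3.

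Dynein heavy chains, the motors themselves, moved unequally. Of 16 tested, 11 had a positive and 5 a negative log2 fold change, with a median of 0.38 and a range of -0.41 to 1.65, and none was called. *Dnah11*, an outer arm heavy chain of the respiratory and nodal cilia, was highest in mutant replicate 2, at 9.05 CPM, followed by 4.84 CPM in mutant replicate 1 and 2.78 and 1.65 CPM in the controls. Its log2 fold change was 1.65 (SE 0.394) with an edgeR FDR of 0.125 and a DESeq2 FDR of 6.6e-04. *Dnah6*, an inner arm chain, was at 16.9 and 20.4 CPM against 10.5 and 13.0 CPM. *Dnah9*, another outer arm chain and the most abundant heavy chain per transcript length (mean 10.0 TPM), was at 25.1 and 30.7 CPM against 21.6 and 24.7 CPM. For both genes the mutant libraries lay above the controls by less than 2 times. In *Dnah5*, *Dnah8* and *Dnah1*, by contrast, both mutant libraries lay below both controls, with log2 fold changes of -0.37, -0.41 and -0.32 that did not pass the test (edgeR FDR 0.268, 0.383 and 0.292). *Dnah14* is uncertain, since its counts are divided over 3 identifiers: ENSMUSG00000047369 lay between 0.0596 and 0.289 CPM over the libraries, with a log2 fold change of 1.47. *Dnah7a*, *Dnah7b* and *Dnah7c* are close paralogues that can share reads.

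Among the light chains, *Dynlrb2*, the roadblock-type light chain of ciliated cells, was at 2.63 and 2.82 CPM in the mutant libraries and at 0.797 and 0.536 CPM in the controls. Both mutant libraries stood more than 3 times above either control, and the log2 fold change was 2.04 (SE 0.266), with an edgeR FDR of 0.0456. The call rests on both controls, because without control replicate 1 or control replicate 2 the edgeR FDR was 0.193 or 0.316, on the assumption that the lone control varies as the mutants do. It was also lost with the replicate number as a block, which in bulk RNAseq coincides with the split by *Xist*: the log2 fold change was 2.05, the edgeR FDR 0.0811, and no member was called. Within each replicate number the mutant library was nevertheless the higher one, at 2.63 against 0.797 CPM in replicate 1 and 2.82 against 0.536 CPM in replicate 2. Without mutant replicate 2, which held most choroid plexus RNA, the log2 fold change was 1.98 and the edgeR FDR 0.0320. The paralogue *Dynlrb1*, which serves cytoplasmic dynein in all cells, was at 87.0 and 77.5 CPM against 74.2 and 72.7 CPM (log2 fold change 0.16). *Dnali1*, an inner arm light intermediate chain, was at 5.11 and 5.31 CPM against 3.12 and 1.80 CPM, whereas *Dnal1* and *Dnal4* differed by a log2 fold change of -0.07 and -0.04.

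Among 4 assembly factors and 7 radial spoke genes tested, none was called, and both mutant libraries lay above both controls for 3 and 5 of them, respectively. *Dnaaf3* was at 2.63 and 3.92 CPM in the mutants against 1.82 and 0.968 CPM, and *Dnaaf1* at 0.884 and 0.905 CPM against 0.372 and 0.447 CPM. *Dnaaf2* and *Dnaaf5* had log2 fold changes of -0.06 and 0.30. *Rsph1*, a spoke head protein, reached 7.92 and 10.4 CPM in the mutants against 4.41 and 3.53 CPM in the controls (log2 fold change 1.21, SE 0.202, edgeR FDR 0.0747, DESeq2 FDR 4.3e-05). *Rsph4a*, also of the spoke head, was at 7.97 and 12.03 CPM against 5.49 and 3.99 CPM. The mutant libraries lay above the controls for both. *Rsph9*, *Rsph3b* and *Rsph3a* had log2 fold changes of 0.11, 0.20 and -0.17, the last pair being near-identical copies. *Rsph6a*, a testis spoke gene, did not exceed 0.177 CPM and was not tested.

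Of the 18 *Cfap* genes, 17 had a positive log2 fold change, with a median of 0.67 and none called by edgeR. *Cfap126*, a regulator of planar positioning of basal bodies, was at 4.20 and 4.61 CPM in the mutants and 1.81 and 1.04 CPM in the controls. *Cfap52*, a protein inside the doublet microtubules, was at 3.76 and 5.87 CPM against 1.75 and 1.55 CPM. These had log2 fold changes of 1.63 (SE 0.294, edgeR FDR 0.0836) and 1.55 (SE 0.267, edgeR FDR 0.0772). *Cfap61* and *Cfap70*, parts of the radial spoke and outer arm regions, had values of 1.39 and 1.29. *Cfap36*, *Cfap20* and *Cfap97* stood at 0.04, 0.10 and -0.06. *Spag16*, of the central apparatus, was at 3.50 and 7.05 CPM against 2.18 and 2.65 CPM, and *Pifo*, linked to disassembly of the primary cilium, at 1.78 and 2.41 CPM against 0.886 and 0.343 CPM (log2 fold change 1.79, SE 0.473, edgeR FDR 0.148, DESeq2 FDR 0.0224). The value of *Pifo* was 2.61 when control replicate 1 was omitted and 1.24 when control replicate 2 was, and the log2 fold change of *Spag16*, 1.13, was 0.53 without mutant replicate 2.

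The members most abundant per transcript length differed little between genotypes. By the deposited TPM values, averaged over the 4 libraries, the order was *Cfap36* (97.0), *Dnal1* (53.1), *Dnal4* (45.4), *Cfap20* (38.1), *Rsph3b* (24.6), *Rsph9* (19.0), *Cfap97* (18.5) and *Cfap74* (14.6). *Foxj1* was at 10.5 TPM and *Dynlrb2* at 7.88 TPM. The first 7 of these had log2 fold changes between -0.07 and 0.20.

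Outside the set, the other axonemal genes lay mostly above the controls, and the ciliary transport genes differed little at the median. Of 86 other axonemal genes tested, 65 had both mutant libraries above both controls and 7 below, against 25.8% and 25.4% of all genes. Their median log2 fold change was 0.62. *Drc7*, of the nexin-dynein regulatory complex, was at 7.37 and 25.3 CPM against 3.33 and 2.26 CPM, the value of mutant replicate 2 standing apart. The only one called was *Rfx3*, an RFX transcription factor, which was lower: 39.6 and 36.7 CPM in the mutants against 124 and 131 CPM (log2 fold change -1.74, edgeR FDR 0.00375). Markers of dentate granule cells were lower in the same libraries, with 5 of 6 called and sums of 81.0 and 72.6 CPM against 402 and 408 CPM, and their part in the *Rfx3* value was not tested. Of 62 genes of intraflagellar transport, the BBSome and the transition zone, which primary cilia also need, none was called by edgeR or DESeq2. Their median log2 fold change was 0.05. Both mutant libraries lay above both controls for 21 of these 62 genes and below for 11, against 25.8% and 25.4% of all genes. At an unadjusted edgeR p below 0.05, 7 were higher and 5 lower, against 8.86% and 9.94% of all genes. *Mchr1*, a receptor of neuronal primary cilia, was at 22.3 and 22.2 CPM against 13.6 and 13.2 CPM (edgeR FDR 0.0388 at a log2 fold change of 0.73).

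The lists of ependymal and choroid plexus markers were mostly above the controls too, but choroid plexus markers differed far more between the mutant libraries than the members did. The 13 ependymal markers measured, of which 12 of the 14 listed are also in the list of other axonemal genes, summed to 62.9 and 62.2 CPM in the mutants and 35.9 and 28.5 CPM in the controls, with 13 of 13 above in both mutant libraries. The ependymal list is thus largely a list of axonemal genes, and its higher level does not set ependymal cells apart from other ciliated cells. Choroid plexus markers were above the controls in 18 of 19. Of all genes, 25.8% had both mutant libraries above both controls. Between the mutant libraries the choroid plexus markers differed by a median ratio of 7.24 (replicate 2 over replicate 1), the ependymal markers by 0.813 and the 37 members that lay above the controls by 1.17, with a range of 0.609 to 2.01. The single member beyond a ratio of 2 was *Spag16*. The 8 meninges markers summed to 133 and 546 CPM in the mutants against 142 and 168 CPM, replicate 2 of the mutant standing apart. The part of these cell types in the bulk difference was not tested.

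**Figure D2:**
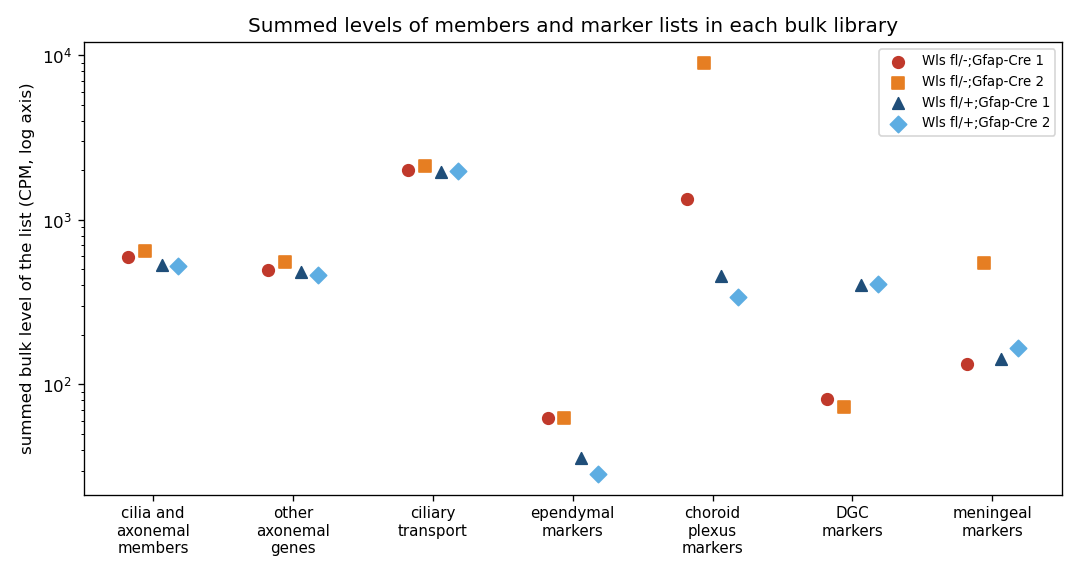
Summed bulk level (CPM, log axis) of the members and of 6 gene lists in each of the 4 libraries, 1 point per library. The choroid plexus sum of mutant replicate 2, at 8955 CPM, stands far above mutant replicate 1 at 1344 CPM, whereas the ependymal sums of the mutants coincide at 62.9 and 62.2 CPM.

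The snRNAseq data place the members in cell types as the authors deposited them. No ependymal type was among these. A choroid plexus type (CP) held 184 nuclei of mutant replicate 2, 9 of control replicate 1 and 0 of the other samples. These nuclei carried their label's markers, with UMIs for a median of 11.5 of the 19 choroid plexus genes in mutant replicate 2. Nuclei with UMIs for at least 3 of the 14 ependymal markers numbered 6 in mutant replicate 1, 140 in mutant replicate 2 and 11 and 30 in the controls, and 98 of the 140 were CP nuclei. The CP nuclei of mutant replicate 2 held UMIs for a median of 3 ependymal markers, so this count does not pick out ependymal nuclei.

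Summed over the members, CP nuclei held a higher level than any other type. In mutant replicate 2 all members together made 5191 UPM (UMIs scaled to an equal total, without further normalisation) in CP nuclei and 4027 UPM in the 9 CP nuclei of control replicate 1, and in no other type of any sample did they exceed 1067 UPM (CA2, mutant replicate 1). The level was alike in CP nuclei with 3 or more ependymal markers (5184 UPM) and with fewer (5201 UPM). Since the type was defined on all genes of these nuclei, the following ratios are descriptions, with exact Poisson intervals that cover counting error only. Of 51 members with at least 20 UMIs in the sample, 19 were over 10 times higher in CP nuclei than in the rest, 31 over 2 times and 7 lower, with a median ratio of 4.03. *Dnaaf3* had the highest ratio, at 90.8 UPM (95% interval 72.7 to 112) against 0.530 UPM. *Dynlrb2* stood at 35.5 UPM (24.6 to 49.6) against 0.344 UPM, and *Foxj1* at 15.7 UPM (8.76 to 25.8) against 0.569 UPM. *Spag16* was the most frequent, with 1016 UMIs and 1060 UPM (996 to 1127) against 23.9 UPM. *Cfap43*, *Dnah6* and *Dnah11* followed the same pattern, with 325.6, 372.5 and 229.6 UPM in CP nuclei.

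Some members had few or no UMIs in CP nuclei. Only for *Dnah5* and *Rsph14* did the interval lie below the level in the other nuclei. *Cfap58* and *Rsph6a* had 0 UMIs in CP nuclei, which allows up to 3.13 UPM at a floor of 3 UMIs and 3.85 UPM by the exact interval, and 0.688 and 0.622 UPM elsewhere. *Dnah5* was at 3.13 UPM (0.646 to 9.15) against 11.9 UPM, and *Dnah8* at 2.09 UPM (0.253 to 7.54) against 6.61 UPM. *Rsph14* was at 10.4 UPM (5.00 to 19.2) against 21.7 UPM. *Dnah5* and *Dnah8* were also 2 of the 4 tested members below the controls in both mutant libraries of bulk RNAseq. The others, *Dnal1* and *Dnah1*, had CP ratios of 1.88 and 1.79. Of the members lower in CP nuclei, *Dnah14* (ENSMUSG00000047369), *Rsph14*, *Cfap58* and *Dnah10* lay above both bulk controls. Their log2 fold changes were 1.47, 0.91, 0.70 and 0.52, none called. Over the 50 members measured in both assays, the bulk log2 fold change had a median of 1.13 in the 19 members with a CP ratio above 10, 0.40 in the 12 with a ratio of 2 to 10 and 0.10 in the 19 below. The members share the same libraries, so this is a description across genes.

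**Figure D3:**
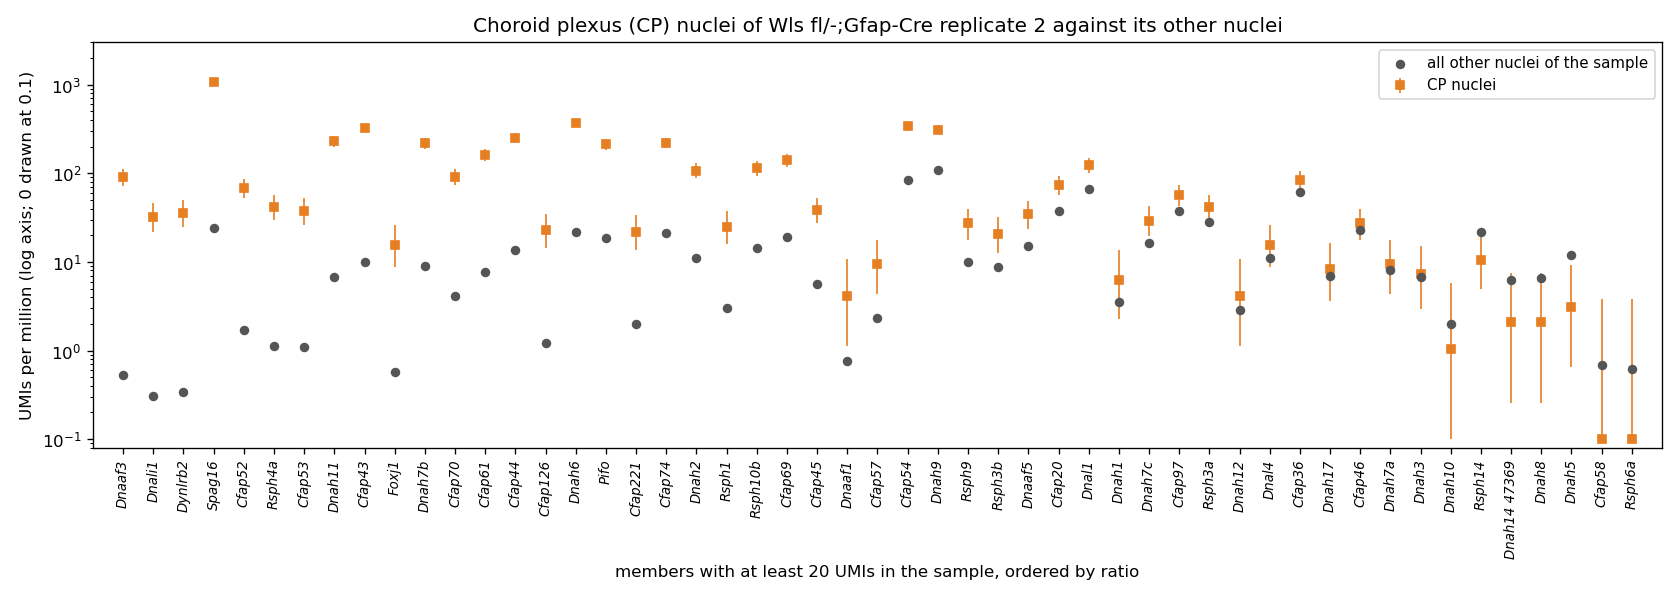
UPM of 51 members in the CP nuclei of mutant replicate 2 (orange squares, bars giving the exact 95% Poisson interval) and in all its other nuclei (grey circles), on a log axis with 0 drawn at 0.1. Members at the left, such as *Dnaaf3* and *Dynlrb2*, are far higher in CP nuclei, and those at the right, such as *Dnah5*, lower.

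Away from CP, individual members had cell type patterns of their own, and UMIs here include intronic reads. *Dnah9* was highest in CA2 neurons, at 347 and 288 UPM in mutants and 244.5 and 250.3 UPM in controls, and was next in CA1. *Dnah6* was concentrated in CA1, at 62.0 and 46.5 UPM in mutants and 45.9 and 40.0 UPM in controls, and in excitatory neurons 13, at 63.0 and 70.2 UPM against 37.2 and 54.9 UPM. *Cfap74* was highest in microglia, at 186 and 187 UPM in mutants and 215 and 280.3 UPM in controls, the first of these from 13 nuclei and 4 UMIs. *Cfap20* was highest in oligodendrocyte precursors (OPCs), at 142 and 159 UPM against 168 and 177 UPM, and *Dnah5* there stood at 68.4 and 55.2 UPM against 30.8 and 44.4 UPM. With CP left aside and the samples of a genotype summed, mutants and controls had the same leading type for each of these genes, although *Dnah6* in control replicate 1 was higher in CA1 than in excitatory neurons 13. *Rsph14* lies over *Gnaz* on the opposite strand, and *Cfap74* overlaps no protein-coding gene in the annotation (gencode vM21). On the same strand 4 members overlap a protein-coding gene, among them *Dnaaf3* (*Tnni3*) and *Cfap43* (*Itprip*), so their counts, also those in CP nuclei, are less certain.

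**Figure D4:**
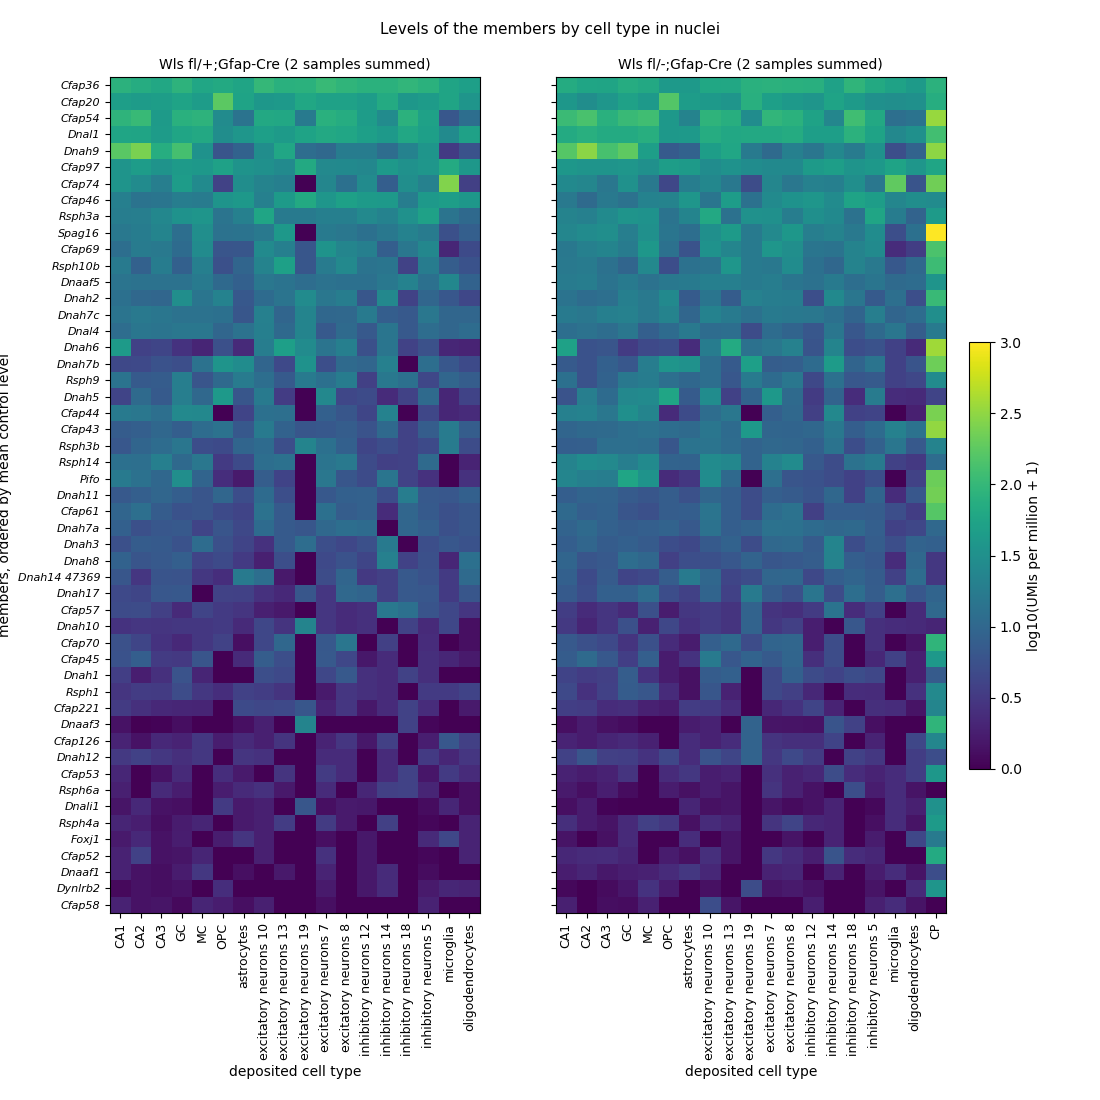
Level of each of the 51 members tested in nuclei (rows) by deposited cell type (columns), as log10(UPM + 1), with the 2 control samples summed at left and the 2 mutant samples at right. CP is drawn for the mutants only, where it is the brightest column; *Dnah9* stands out in CA2, *Cfap74* in microglia and *Cfap20* in OPCs in both panels.

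With the UMIs of all nuclei of a sample summed and normalised (CPM), 51 members were tested and none was called at FC >2 and FDR <0.05 by edgeR, which called 0% of all 20575 genes in either direction. At an unadjusted p below 0.05, 11 members were higher and 1 lower, against 6.3% and 8.49% of all genes, and DESeq2 called *Cfap52* and *Spag16* higher, as it did 0.738% of genes, and gave 4 members an FDR <0.05 with a higher level, as for 1.59% of genes. The log2 fold change exceeded 1 in 5 members, as in 3.59% of all genes. The median log2 fold change was 0.27 against 0.02 over all genes, with a pooled SD of 0.0382 between the library medians of the same genotype. Both mutant samples lay above both controls for 28 members (24.5% of all genes) and below for 3 (24% of all genes). *Spag16* was at 28.5 and 35.7 CPM against 14.7 and 15.9 CPM (log2 fold change 1.07, SE 0.172, edgeR FDR 0.172), and at a log2 fold change of 0.81 without the CP nuclei. *Cfap70*, *Cfap45*, *Rsph4a*, *Dnah6*, *Rsph14* and *Dnah7b* followed at log2 fold changes between 0.74 and 1.01, that of *Rsph14* being 1.43 without control replicate 2. In sums over all nuclei, shifted shares of cell types and shifted levels per nucleus cannot be told apart. Dentate granule cells, for example, were 1.70% and 4.43% of the mutant nuclei and 36.1% and 27.9% of the control nuclei. *Foxj1* and *Dynlrb2* stayed below 0.85 CPM in every sample and overlapped between genotypes, and *Dynlrb2* had a log2 fold change of 0.60 with the CP nuclei and -0.08 without them. With the replicate number as a block, edgeR called 4 members higher (*Cfap45*, *Cfap52*, *Cfap70* and *Spag16*). How many of all genes that fit called was not counted.

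*Cfap52* had the largest difference in nuclei, at 5.93 and 2.47 CPM in mutants against 0.957 and 0.543 CPM in controls (log2 fold change 2.49, SE 0.541, edgeR FDR 0.196, DESeq2 FDR 6.95e-04). Without mutant replicate 1 the log2 fold change was 1.74. The type inhibitory neurons 15 held 113 and 52 of its UMIs in the mutants, at 144.5 and 60.6 UPM, and 3 and 0 in the controls. That type numbered 143 and 102 nuclei in the mutants but 15 and 1 in the controls, too few for a test within it. Without these nuclei, an alternative added after the data were seen, the log2 fold change was 1.31. *Cfap52* thus appeared in CP nuclei (67.8 UPM in mutant replicate 2) and in a neuronal type, and the part of each in the bulk value was not tested.

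Within cell types no member was called. Of 18 types in which each sample held 10 nuclei or more, 17 had a member that passed the low-count filter, giving 397 tests, and edgeR called 0 members in either direction, where it called 0.101% of all gene and type pairs higher and 0.0889% lower. DESeq2 called 0 as well. At an unadjusted p below 0.05, 41 member tests were higher and 4 lower, against 4.48% and 4.82% of all gene and type pairs. Both mutant samples lay above both controls in 156 of the 397 member and type pairs and below in 36, that is in 39.3% and 9.07%, against 19.9% and 20.6% of all gene and type pairs. The pairs of a member come from the same mice and are not independent.

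Members that lay above in many types were *Cfap54* (13 of 16 types tested), *Spag16* (10 of 13) and *Dnaaf5* (10 of 12). In CA3, *Cfap54*, a central apparatus protein, was at 79.5 and 79.8 CPM in mutants against 38.5 and 43.7 CPM (log2 fold change 0.95, edgeR FDR 0.154). *Spag16* in excitatory neurons 8 was at 46.4 and 32.1 CPM against 12.8 and 16.5 CPM (log2 fold change 1.41, edgeR FDR 0.378). *Dnah9* in CA3 was at 111 and 137 CPM against 67.7 and 74.9 CPM (log2 fold change 0.80, edgeR FDR 0.168). Leaving CP aside, *Pifo* was highest in dentate granule cells (DGCs), with 90 and 463 DGC nuclei in the mutants and 2336 and 2007 in the controls. Its level within DGCs was 43.0 and 60.0 CPM in mutants against 37.3 and 23.4 CPM (log2 fold change 0.87, edgeR FDR 0.154), and in mossy cells (MC) 40.6 and 35.5 CPM against 7.73 and 9.50 CPM (log2 fold change 2.05, edgeR FDR 0.135). The paper places most DGCs that remain in the mutant in the ventral dentate gyrus, with nearly all dorsal ones missing. Values within DGCs therefore compare unlike mixtures of dorsal and ventral cells, and the part of this was not tested. The MC values rest on 27 and 89 nuclei in the mutants and 38 and 32 in the controls. Over all genes these nuclei held 186587 to 932532 UMIs per sample, so the counts of a single gene are small. Summed over all nuclei, *Pifo* differed by a log2 fold change of 0.11, and by 0.70 without DGC nuclei. Other members lay below both controls more often than above. *Cfap36* was below in 7 of 17 types and above in 0, *Cfap20* below in 5 of 16 and above in 0, *Cfap46* below in 5 of 16 and above in 2, and *Cfap74* below in 5 of 12 and above in 2.

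**Figure D5:**
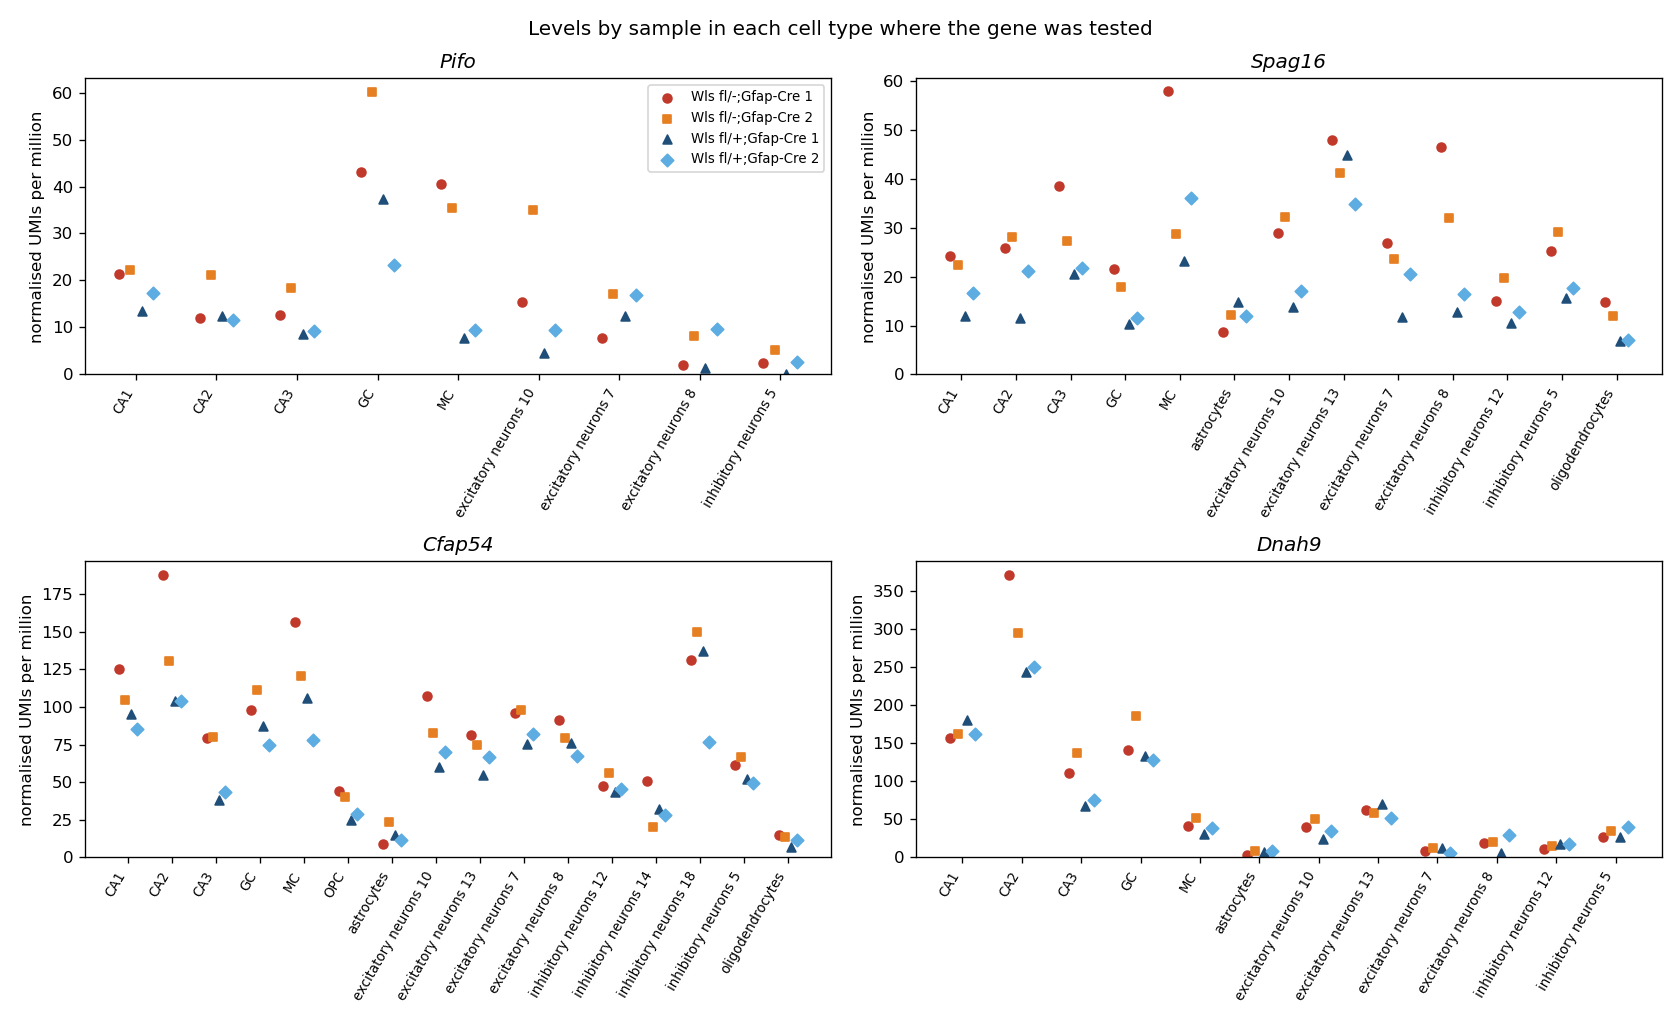
Normalised CPM of *Pifo*, *Spag16*, *Cfap54* and *Dnah9* in every cell type where the gene was tested, 1 point per sample on linear axes from 0. *Pifo* in mossy cells (27 to 89 nuclei per sample) and *Cfap54* and *Dnah9* in CA3 show mutant points (red, orange) apart from the control points (blue), without passing the test.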

How the data were processed

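Each assay had 2 mutant and 2 control samples, grouped by their labels. In bulk RNAseq the authors used mm10 with RSEM 1.3.0 and Bowtie2 2.2.9 and deposited expected counts and TPM values per gene, and a matrix of signal, the expected counts divided by library size factors. For snRNAseq they aligned reads to a pre-mRNA index with Cell Ranger 3.1.0, so that intronic reads count, and deposited UMI counts per nucleus, a size factor ratio (not used) and a cell type. No doublet caller was run here.

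Expected counts were rounded, and UMIs were summed per sample and per type with at least 10 nuclei in every sample. Genotypes were compared over all genes with edgeR 4.0.16 (quasi-likelihood test, filterByExpr, TMM, Benjamini-Hochberg adjustment, R 4.3.3) at FC >3 (bulk) or >2 (nuclei) and FDR <0.05. EBSeq was not run. Alternatives were DESeq2 1.42.0, RLE, no filter, a replicate block, limma 3.58.1 on log2(signal + 1), FDR alone, omitted samples and omitted nuclei. On simulated data 96.5% of 200 genes changed 6-fold were recovered in bulk over 20292 genes with 19 false calls, and 91.5% of 200 changed 4-fold in summed nuclei over 20291 genes with 25. With 2 mice per genotype an exact permutation test cannot go below p = 0.33.

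Members and lists were chosen with earlier results of these data known. Named were *Foxj1*, *Dynlrb2*, *Spag16*, *Pifo*, every called member, the 10 largest bulk and 8 largest nuclear differences without overlap, the 8 members highest in TPM and up to 2 per cell type. Other genes were named after their values were seen. Counts shared by paralogues or overlapping genes are uncertain.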

Additional observations from a re-analysis of the deposited data

Results flagged for a closer look

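In 4 cases every mutant sample lay above the controls in one cell type and below them in another, for members with at least 20 UMIs in every sample of both types, and the difference between types was not tested. How often all genes did so was not counted. Of all gene and type pairs, 19.9% lay above and 20.6% below. *Dnah9* lay below the controls in CA1, at 157 and 163 UPM against 175 and 166 UPM, and above them in CA2, CA3 and DGCs, so that the log2 ratios differed from CA1 by 0.45, 0.86 and 0.40. All cases of *Dnah9* share this CA1 value, which was near a tie. In normalised CPM, mutant replicate 2 was at 162.5 and control replicate 2 at 162.6 (log2 fold change -0.11, edgeR FDR 0.838). The DGC value compares unlike mixtures of dorsal and ventral cells, as given above. *Dnah2* lay above the controls in CA3, at 14.6 and 10.6 UPM against 6.49 and 10.1 UPM, and below them in inhibitory neurons 5, at 6.90 and 5.88 UPM against 8.13 and 9.09 UPM, a difference of 1.04.

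In 4 members the bulk libraries and the summed nuclei moved in opposite directions without overlap, and this difference was not tested either. The share of all genes that did so was not counted. Of all genes, 25.8% lay above and 25.4% below in bulk, and 24.5% and 24% in summed nuclei. The 4 are therefore listed, not read as a trait of the members. Bulk minus nuclear log2 fold change was -0.59 for *Dnah1*, -0.64 for *Dnah5*, -0.28 for *Dnal1* and 0.90 for *Cfap74*. *Dnah5* was at 6.15 and 5.28 CPM in bulk mutants against 7.71 and 7.03 CPM, and at 12.6 and 11.4 CPM in mutant nuclei against 10.5 and 9.35 CPM. *Cfap74* was at 20.4 and 23.9 CPM in bulk mutants against 19.7 and 14.8 CPM, and at 21.3 and 23.2 CPM in mutant nuclei against 30.8 and 34.1 CPM.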

How the results depend on the processing

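Calls changed with the samples used in bulk and within cell types, and with the method and the block in all nuclei, where no member was called when any 1 sample was left out. The number of members called higher in bulk was 4 with DESeq2 and 4 without the low-count filter, against 1, and lay between 0 and 5 when 1 sample was left out. The median log2 fold change of the members lay between 0.52 and 0.77 in bulk and between 0.25 and 0.35 in all nuclei when 1 sample was left out, and was 0.21 in all nuclei without the choroid plexus nuclei and 0.41 without the DGC nuclei. DESeq2 called 2 members higher in all nuclei. It called 0.434% of all genes higher in bulk and 0.738% in all nuclei. The share of all genes called was not counted for the other alternatives. For other axonemal genes DESeq2 called 3 and the fit without the filter 4, against 1, with 0 to 10 when 1 sample was left out, and 1 ciliary transport gene passed on FDR alone. Within cell types 2 pairs of member and type were called higher without the filter, and 0 to 9 pairs when 1 sample was left out, the 9 (7 members) without control replicate 2.

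The labels give no batch behind the replicate numbers, but in bulk they coincide with the split by *Xist*, so the block stands for that split there. Differences between replicates correlated at 0.02 in bulk and 0.45 in all nuclei. With the replicate block, 0 members were called higher in bulk, against 1, 4 in all nuclei, and 3 members in 4 pairs within cell types. How many of all genes the block called was not counted, so these counts have no background.

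Some directions of members that were not called turned. In bulk, leaving out 1 sample gave -0.00053 to 0.072 for *Cfap36*, -0.15 to 0.014 for *Cfap97* and -0.13 to 0.30 for *Rsph9* on the log2 scale. In all nuclei it gave -0.10 to 0.63 for *Cfap126*, -0.30 to 0.14 for *Cfap97*, -0.41 to 2.17 for *Dnaaf3*, -0.27 to 0.012 for *Dnah9*, -0.43 to 1.54 for *Dynlrb2*, -0.24 to 0.37 for *Pifo* and -0.082 to 0.013 for *Rsph3b*. Without choroid plexus nuclei *Dynlrb2* was at -0.079, and without DGC nuclei *Cfap97* was at 0.028 and *Rsph3b* at 0.36. The cause was not tested, except that fits with fewer samples or nuclei hold fewer data.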
